A study of Mus musculus with 8 samples.

Results

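The expression of 10 genes of the hypoxia pathway was examined in sorted growth plate cells from mice treated with SAG or its vehicle, DMSO. The genes were listed by name, with earlier results of these data known, and all 10 were found among the 16536 genes of the count table. They encode the subunits of the hypoxia-inducible factors (*Hif1a*, *Epas1*, *Arnt*), a pair of prolyl hydroxylases that act on them (*Egln1*, *Egln3*) and a set of known HIF target genes (*Vegfa*, *Bnip3*, *Ankrd37*, *Ndrg1*, *Car9*). SAG is a small molecule that activates Smoothened, a membrane protein through which hedgehog ligands signal. All mice carried the Pthrp-mCherry reporter, whose red fluorescence labels *Pthlh*-expressing cells, and were injected i.p. once daily with SAG (n = 4) or DMSO (n = 4). According to the labels injections ran from postnatal day 30 to day 36, whereas the methods of the study start them a day later, and the mice were sacrificed at day 38. Cells positive for mCherry and for the surface protein CD73 (the product of *Nt5e*) were sorted from the femoral growth plates of each mouse and sequenced as 1 library. The study as a whole used animals of both sexes, its paper does not give the sex of the sequenced mice, and sex was not considered here.

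A hypoxia-inducible factor (HIF) is a pair of proteins, an oxygen-regulated alpha subunit (HIF-1α from *Hif1a* or HIF-2α from *Epas1*) and the constant partner ARNT. When oxygen is present, prolyl hydroxylases modify the alpha subunit, which is then bound by the VHL ubiquitin ligase and degraded. Oxygen thus acts mainly on the protein, and the RNA level of an alpha subunit is not a measure of its activity. When oxygen is scarce the pair accumulates and activates genes of glucose uptake, glycolysis, vessel growth, pH control and mitochondrial turnover. The cartilage of the growth plate has no vessels of its own, and HIF-1α is known to be needed for the survival of its chondrocytes.

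Between 24971992 and 46593090 reads were counted on genes in each library, and 3 counts, the smallest number taken as detection here, correspond to between 0.0670 and 0.114 CPM (counts relative to library size, scaled between libraries), a floor that covers counting error only. DMSO replicate 4 stood apart, with the fewest reads and 14416 genes detected against 15524 to 16285 in the other libraries. For most of the 10 genes, and for the share of *Egln3*, the value without this library is also given. Defining markers of the sort were present, since *Pthlh* had at least 582 counts and *Nt5e* at least 5174 counts in each library. The summed level of the markers of the sorted population (*Pthlh*, *Nt5e*, *Sfrp5*) was 277 to 353 CPM with DMSO and 192 to 230 CPM with SAG, and 0 of these 3 genes passed the test. Markers of other cells were also present. The summed level of 12 neutrophil markers was 5235 to 14869 CPM with DMSO and 28171 to 44762 CPM with SAG, without overlap, and 10 of the 12 rose. The summed level of 10 B lineage markers was 88.1 to 406 CPM with DMSO and 21.4 to 49.7 CPM with SAG, and 3 of the 9 tested fell. The 10 chondrocyte markers, led by *Col2a1*, summed to 45199 to 102929 CPM with DMSO and to 17709 to 49877 CPM with SAG, with the lowest sum in SAG replicate 2. Of these 10, 0 passed the test, and their median log2 fold change was −1.03. Of the 6 hypertrophic chondrocyte markers, 2 fell (*Col10a1* and *Ihh*), with sums of 1161 to 2264 CPM and 425 to 2049 CPM. Sums overlapped between the groups for monocyte and macrophage markers (308 to 636 and 516 to 721 CPM, with 1 of 9 called higher), erythroid markers (1067 to 9902 and 541 to 5899 CPM), endothelial markers (31.8 to 94.7 and 31.6 to 67.8 CPM) and osteoblast and stroma markers (846 to 6754 and 1073 to 3272 CPM). In total RNA of a sorted pool, fewer cells of a type and less RNA per cell cannot be told apart. The part that these other cells have in the levels of the hypoxia genes was not tested.

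**Figure D1:**
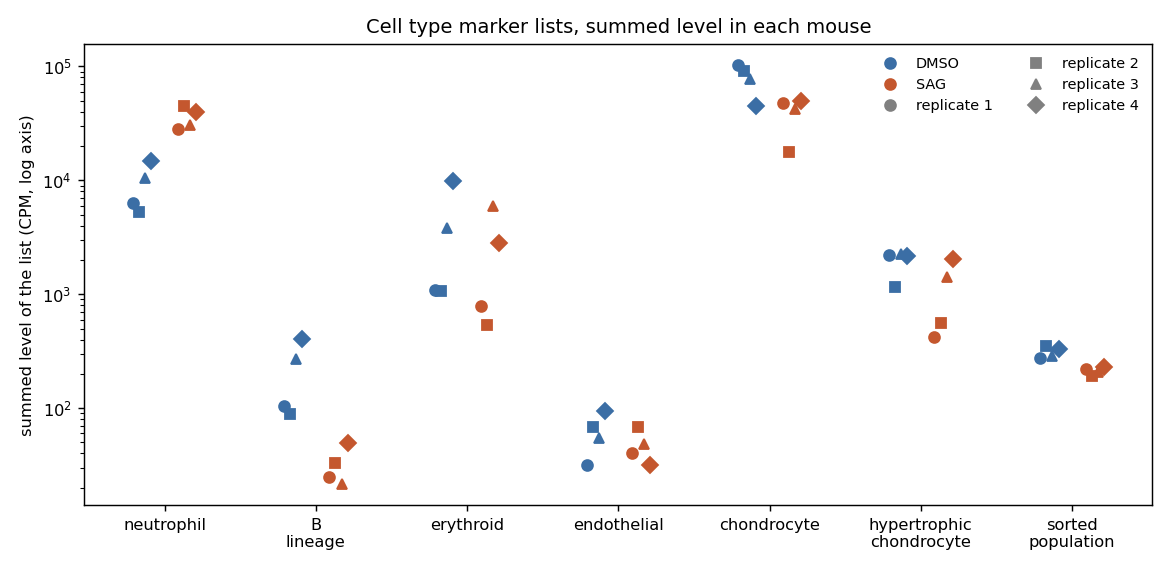
Summed level (CPM, log axis) of the markers of 7 of the cell types in each mouse, DMSO in blue and SAG in orange. Neutrophil marker sums are between 28171 and 44762 CPM in the SAG group and at most 14869 CPM in the DMSO group, whereas chondrocyte marker sums overlap.

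HIF binds DNA at a short core, searched here as ACGTG or GCGTG on either strand (CACGT or CACGC when read on the other one), which overlaps the CACGTG letters bound by other transcription factors. Overlapping matches were counted as 1 site. RefSeq promoter windows of 300 bases (250 before to 50 after the start of transcription, build GRCm38.p6) were matched by symbol for 8 of the 10 genes, with a pair of windows for *Vegfa*. *Epas1* and *Ndrg1* had no entry. The core was found in 8 of these 9 windows, against 43.8% of all 32851 windows of this length. Counted by position, *Bnip3* had 4 core sites, *Ankrd37* 3, *Hif1a* and *Egln1* 2 each, and *Arnt*, *Egln3* and *Car9* 1 each. The *Vegfa* window at the start of the gene model had 0, and the window at its downstream start had 2. A match is a description of the letters and not evidence of binding. Stretches of 100 bases are shown for *Egln3*, *Bnip3*, *Ankrd37* and *Car9*, the members with the highest number of sites and those with the widest spread between mice, each 5′ to 3′ on the strand of its gene. Capitals mark the core sites. The stretches lie at chr12:54204014-54204113 (minus strand), chr7:138909530-138909629 (minus strand), chr8:45999995-46000094 (minus strand) and chr4:43506920-43507019 (plus strand).
Egln3: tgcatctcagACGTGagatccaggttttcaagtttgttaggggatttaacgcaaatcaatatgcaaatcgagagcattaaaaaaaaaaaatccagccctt
Bnip3: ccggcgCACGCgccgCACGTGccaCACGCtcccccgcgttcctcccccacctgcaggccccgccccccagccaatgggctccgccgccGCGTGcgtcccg
Ankrd37: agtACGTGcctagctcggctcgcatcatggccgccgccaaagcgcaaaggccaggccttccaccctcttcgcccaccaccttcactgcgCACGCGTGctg
Car9: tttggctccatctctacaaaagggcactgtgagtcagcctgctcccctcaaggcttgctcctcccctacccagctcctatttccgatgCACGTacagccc

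For none of the 10 genes was a difference between SAG-treated and DMSO-treated mice detected beyond the spread between mice. By edgeR's quasi-likelihood test with Benjamini-Hochberg adjustment over all 15421 tested genes, 0 of the 10 passed an adjusted p of 0.05, higher or lower, and the lowest adjusted p was 0.321. Over all tested genes 2.89% passed this test, 2.62% higher and 0.266% lower with SAG. At an unadjusted p under 0.05, 0 of the 10 genes passed in edgeR, against 16.1% of all tested genes. DESeq2 gave no adjusted p to *Ankrd37* and *Car9* and called 0 of the other 8 genes, against 9.95% of all genes with an adjusted p. At an unadjusted p under 0.05 it called 2 of the 10 (*Bnip3* and *Car9*), against 18.3%. Limma voom called 0 of 10, against 9.03%, and 2 (*Hif1a* and *Ndrg1*) at an unadjusted p under 0.05, against 23.6%. The levels of the groups overlapped for all 10 genes, and they did not overlap for 11.7% of all tested genes. With only 10 genes, counts of 0 do not set them apart from all tested genes. Of the log2 fold changes (SAG against DMSO), 6 were above 0 and 4 below, with a median of 0.04 against −0.08 over all tested genes. All 10 genes passed the filter on low counts.

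**Figure D2:**
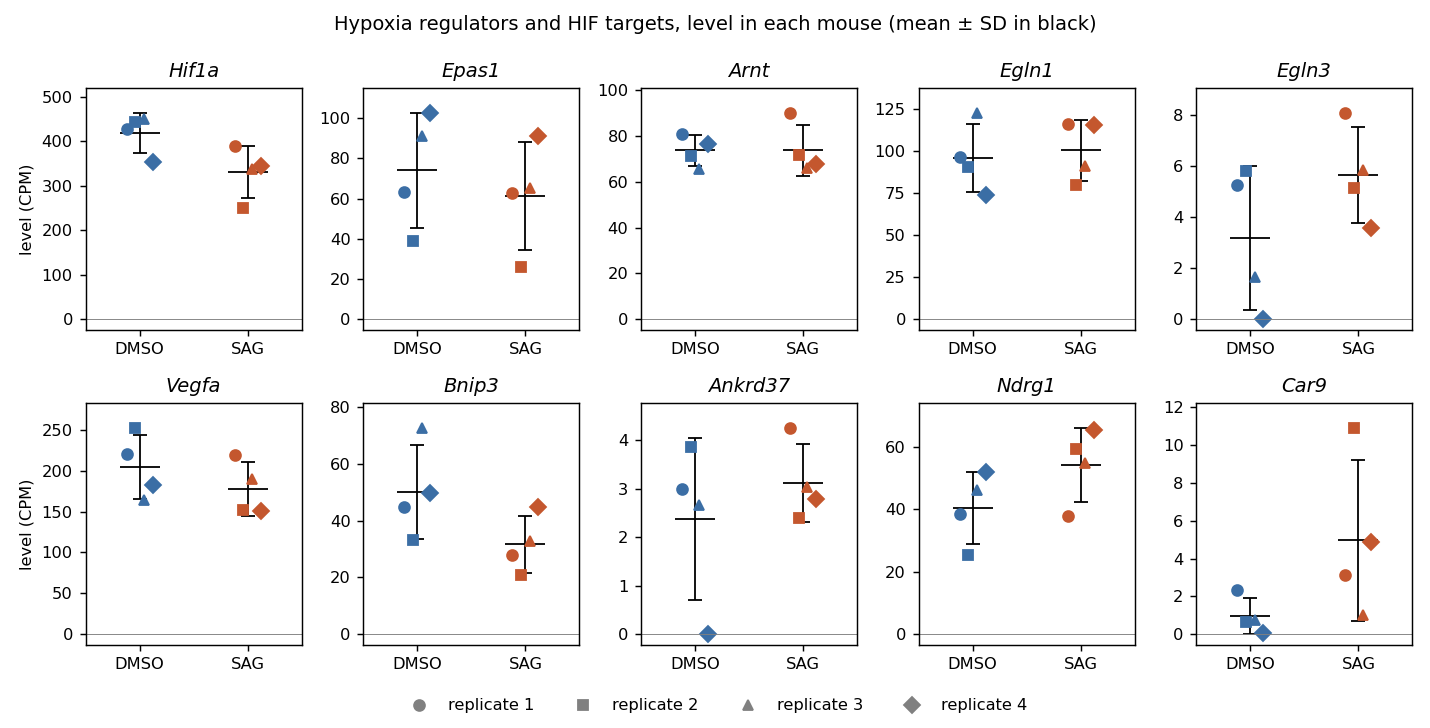
Level (CPM, linear axis from 0) of each of the 10 genes in each mouse, DMSO in blue and SAG in orange, with the mean ± SD of each group in black and a marker shape for each replicate number. The groups overlap in every panel, and *Egln3* and *Ankrd37* are at 0 in DMSO replicate 4.

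*Hif1a*, on chromosome 12 from 73901375 to 73947530 (GENCODE M21, GRCm38), encodes the alpha subunit of HIF-1. Its level was 427, 444, 451 and 353 CPM in DMSO replicates 1 to 4 and 390, 251, 337 and 345 CPM in SAG replicates 1 to 4. It was lowest in SAG replicate 2, the mouse with the lowest sum of chondrocyte markers, and only 1 SAG-treated mouse exceeded the lowest DMSO-treated mouse. The mean was 418.5 ± 45.1 CPM (SD, n = 4) in the DMSO group and 330.8 ± 58.2 CPM (SD, n = 4) in the SAG group. The log2 fold change was −0.34 (95% interval −0.74 to 0.059, standard error, SE, 0.18, edgeR adjusted p = 0.408), so a fall of up to 0.74 or a rise of up to 0.059 on the log2 scale lies within the interval. Without DMSO replicate 4 the log2 fold change was −0.38.

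*Epas1*, on chromosome 17 from 86753700 to 86833410, encodes the alpha subunit of HIF-2, which is prominent in endothelial cells and also present in chondrocytes. Its level was 63.3, 39.0, 91.3 and 102 CPM with DMSO and 62.8, 26.0, 65.1 and 91.0 CPM with SAG. The mice of each group differed among themselves by more than the groups did, and replicate 2 was the lowest in both. SAG-treated mice had a log2 fold change of −0.27 (95% interval −1.10 to 0.56, SE 0.38, edgeR adjusted p = 0.806), and it was −0.05 without DMSO replicate 4.

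*Arnt*, on chromosome 3 from 95434388 to 95497240, encodes the partner subunit, whose protein is not degraded by oxygen. Its level was 81.1, 71.2, 65.8 and 76.7 CPM with DMSO and 89.99, 71.9, 65.8 and 67.6 CPM with SAG. The group means were nearly equal, at 73.7 ± 6.64 CPM with DMSO and 73.8 ± 11.1 CPM with SAG (SD, n = 4 each). Its log2 fold change was 0.0027, with a 95% interval of −0.40 to 0.40, and its sign changed with the scaling.

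The balance of the alpha subunits was compared per mouse as the ratio of *Hif1a* to *Epas1* counts per exon length, which does not depend on the size of the library. The ratio was 6.39, 10.8, 4.68 and 3.27 with DMSO and 5.89, 9.13, 4.91 and 3.60 with SAG. *Hif1a* exceeded *Epas1* in every mouse, and the ratios overlapped. The mean ratio was 6.29 ± 3.27 with DMSO and 5.88 ± 2.36 with SAG (SD, n = 4 each), and the difference of −0.039 on the log2 scale gave p = 0.943 in an exact 2-sided permutation test. The smallest p that the 70 relabellings of 4 mice against 4 can give is 0.0286. In the annotation *Hif1a* overlaps a protein-coding gene model on its own strand, and *Epas1* overlaps another model on its own strand. Neither model is in the count table, and how shared reads were counted is not given.

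*Egln1*, on chromosome 8 from 124908587 to 124949324, encodes PHD2, the main oxygen sensor among the prolyl hydroxylases. Its level was 96.1, 90.5, 122 and 73.7 CPM with DMSO and 116, 79.6, 90.7 and 115 CPM with SAG. Neither group was shifted as a whole. On the log2 scale *Egln1* differed by 0.07 (95% interval −0.39 to 0.53, SE 0.21, edgeR adjusted p = 0.923), and it was −0.0091 without DMSO replicate 4.

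*Egln3*, on chromosome 12 from 54178981 to 54203860, encodes PHD3, a prolyl hydroxylase whose gene is itself induced by HIF. Its level was 5.27, 5.81, 1.66 and 0 CPM with DMSO (226, 260, 55 and 0 counts) and 8.08, 5.13, 5.83 and 3.58 CPM with SAG (281, 216, 234 and 157 counts). *Egln3* was thus low in DMSO replicates 3 and 4 and present in all other mice at more than 3 CPM, and the groups overlapped. The estimated log2 fold change was 0.83 (95% interval −1.58 to 3.23, SE 1.10, edgeR adjusted p = 0.796). Without DMSO replicate 4, the library with 0 counts, it was 0.44, and over all alternatives run it lay between 0.44 and 1.73. The wide interval leaves both a fall and a severalfold rise within it.

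As a share of *Egln1* counts, *Egln3* counts were 5.48%, 6.42%, 1.36% and 0% with DMSO and 6.97%, 6.45%, 6.43% and 3.11% with SAG. *Egln1* was the more abundant of the pair in all 8 mice. The mean share was 3.31% ± 3.12 (SD, n = 4) in the DMSO group and 5.74% ± 1.77 (SD, n = 4) in the SAG group, a difference of 2.42 percentage points (exact 2-sided permutation test, p = 0.171). The difference was 1.32 percentage points without DMSO replicate 4 (exact permutation test, p = 0.457) and 3.46 percentage points without DMSO replicate 2 (p = 0.143 in the same exact test).

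*Vegfa*, on chromosome 17 from 46016993 to 46032369, encodes the growth factor that draws vessels towards hypertrophic cartilage. Its level was 220, 252, 164 and 183 CPM with DMSO and 219, 152, 190 and 151 CPM with SAG. SAG replicates 2 and 4 were the lowest of the 8 mice, and the other SAG-treated mice lay within the DMSO range. For *Vegfa* the log2 fold change was −0.20 (95% interval −0.64 to 0.24, SE 0.20, edgeR adjusted p = 0.711).

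*Bnip3*, on chromosome 7 from 138890836 to 138909519, encodes a mitochondrial protein that directs mitochondria to autophagy, and its promoter stretch shown above held 4 core sites. Its level was 44.8, 33.2, 72.7 and 49.9 CPM with DMSO and 27.9, 20.9, 33.0 and 44.8 CPM with SAG. Of the SAG-treated mice, 3 lay below all DMSO-treated mice, and SAG replicate 4 lay within their range. The mean was 50.2 ± 16.6 CPM (SD, n = 4) in the DMSO group and 31.6 ± 10.1 CPM (SD, n = 4) in the SAG group. This gave a log2 fold change of −0.66 (95% interval −1.34 to 0.011, SE 0.31, edgeR adjusted p = 0.322).

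*Ankrd37*, on chromosome 8 from 45996902 to 46005707, encodes an ankyrin repeat protein and is a known direct HIF-1 target. It overlaps *Ufsp2* and *Lrp2bp* on the opposite strand, and since the use of strand in the counting is not given in the sources used here, reads of these genes may not be told apart. Its level was 2.98, 3.86, 2.66 and 0 CPM with DMSO (128, 173, 88 and 0 counts) and 4.25, 2.40, 3.04 and 2.78 CPM with SAG (148, 101, 122 and 122 counts). Apart from the library at 0, the mice of both groups covered similar ranges. Its estimated change was 0.39 on the log2 scale (95% interval −2.14 to 2.92, SE 1.16, edgeR adjusted p = 0.920), and over all alternatives run it lay between 0.0066, without DMSO replicate 4, and 0.99, with the replicate number as a block.

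*Ndrg1*, on chromosome 15 from 66929318 to 66969640, encodes a cytoplasmic protein induced by stress and differentiation. Its level was 38.4, 25.4, 46.2 and 51.9 CPM with DMSO and 37.7, 59.2, 54.6 and 65.2 CPM with SAG. Of the SAG-treated mice, 3 lay above all DMSO-treated mice, and SAG replicate 1 lay below 3 of them. The mean was 40.5 ± 11.4 CPM (SD, n = 4) in the DMSO group and 54.2 ± 11.8 CPM (SD, n = 4) in the SAG group. The difference on the log2 scale was 0.42 (95% interval −0.17 to 1.02, SE 0.27, edgeR adjusted p = 0.510), and 0.59 without DMSO replicate 4.

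*Car9*, on chromosome 4 from 43506966 to 43513729, encodes carbonic anhydrase 9, a cell surface enzyme of pH control and a widely used hypoxia marker. Its level was 2.33, 0.670, 0.755 and 0.0759 CPM with DMSO (100, 30, 25 and 2 counts) and 3.10, 10.9, 1.02 and 4.86 CPM with SAG (108, 459, 41 and 213 counts). It was highest in SAG replicate 2 and under the floor of 3 counts in DMSO replicate 4, and SAG replicate 3 lay below DMSO replicate 1. The mean was 0.958 ± 0.964 CPM (SD, n = 4) in the DMSO group and 4.97 ± 4.26 CPM (SD, n = 4) in the SAG group. The log2 fold change of 2.37 was the largest of the 10 genes in this fit, with a standard error of 1.10, a 95% interval of −0.034 to 4.77 and an adjusted p of 0.321 from edgeR. Without DMSO replicate 4 it was 2.01. Leaving out each mouse in turn moved it between 1.64 and 3.30, and the call did not change.

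**Figure D3:**
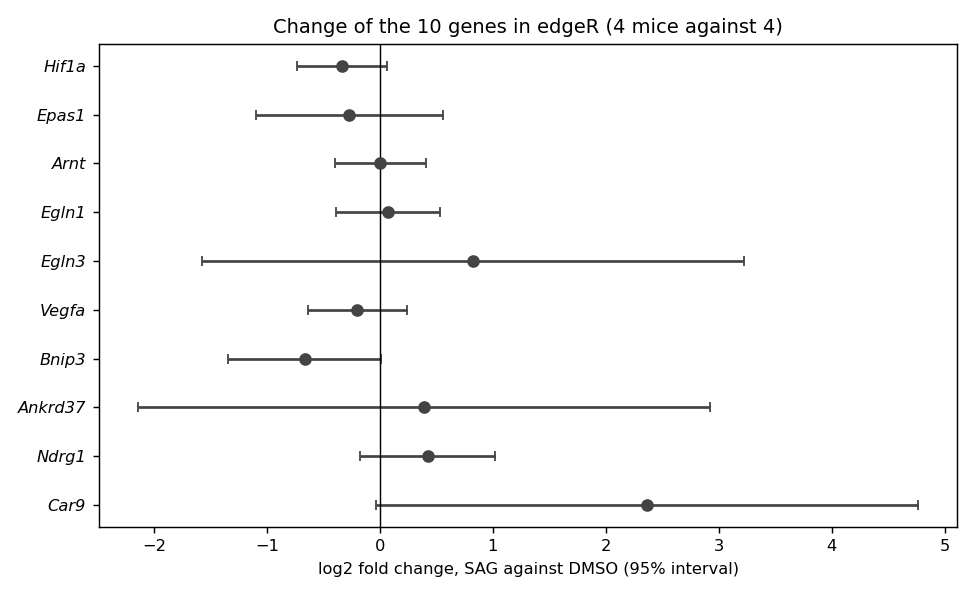
Log2 fold change (SAG against DMSO) of the 10 genes from edgeR, with points for the estimates and bars for the 95% intervals (4 mice against 4). All 10 intervals include 0, and the interval of *Ankrd37* (−2.14 to 2.92) is the widest.

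Levels can be compared between genes only per length, and for this FPKM was computed over the summed exon length of each gene model. In DMSO-treated mice the order of the mean levels was *Hif1a* (71.0 ± 7.65 FPKM, SD, n = 4), *Vegfa* (47.7 ± 9.22), *Egln1* (26.6 ± 5.61), *Bnip3* (22.1 ± 7.32), *Epas1* (13.2 ± 5.10), *Arnt* (9.20 ± 0.83), *Ndrg1* (6.13 ± 1.74), *Ankrd37* (1.54 ± 1.08), *Egln3* (1.20 ± 1.06) and *Car9* (0.416 ± 0.418). The values of neighbouring genes in this order overlapped between mice for *Egln1* and *Bnip3*, *Bnip3* and *Epas1*, *Epas1* and *Arnt*, *Ankrd37* and *Egln3*, and *Egln3* and *Car9*. They did not overlap for *Hif1a* and *Vegfa*, *Vegfa* and *Egln1*, *Arnt* and *Ndrg1*, and *Ndrg1* and *Ankrd37*. In SAG-treated mice *Hif1a* (56.1 ± 9.87 FPKM, SD, n = 4) and *Vegfa* (41.6 ± 7.68) were again at the top, whereas *Ankrd37* (2.03 ± 0.520), *Egln3* (2.12 ± 0.702) and *Car9* (2.16 ± 1.85) were at nearly the same level.

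Other genes of the pathway were counted in lists that hold none of the 10. Among 18 HIF targets of glucose uptake and glycolysis, 5 rose with SAG and 0 fell (edgeR, adjusted p under 0.05), with a median log2 fold change of 0.34. Among 35 HIF targets with other functions, 1 rose and 0 fell, and the median was −0.24, with 24 of the 35 log2 fold changes below 0. Among 20 other regulators of oxygen sensing and HIF, 1 rose and 0 fell, with a median of −0.13. These counts stand against 2.62% of all tested genes called higher and 0.266% called lower, and against a median of −0.08 over all tested genes.

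The glycolytic genes that rose cover uptake of glucose and several steps of its breakdown. *Slc2a3* encodes the glucose transporter GLUT3, and its level was 116, 132, 188 and 279 CPM with DMSO and 292, 626, 407 and 534 CPM with SAG, a log2 fold change of 1.38 (SE 0.31; edgeR, adjusted p = 0.0383). *Gpi1* encodes glucose-6-phosphate isomerase, and its level was 236, 272, 300 and 356 CPM with DMSO and 727, 754, 487 and 617 CPM with SAG, a log2 fold change of 1.15 (SE 0.20; edgeR, adjusted p = 0.0141). *Pfkfb4*, whose product sets the level of a regulator of phosphofructokinase, changed from 63.8 ± 18.0 to 172.6 ± 57.9 CPM (SD, n = 4 each; edgeR log2 fold change 1.44, adjusted p = 0.0208). The groups did not overlap for any of these 3 genes. The glycolytic enzymes *Aldoa* (aldolase A) and *Gapdh* changed less, with log2 fold changes of 0.81 (edgeR, adjusted p = 0.0300) and 0.74 (edgeR, adjusted p = 0.0403). *Pgk1*, the enzyme that follows *Gapdh*, had a log2 fold change of 0.81 and an adjusted p of 0.127. *Gapdh* and *Aldoa* are present in nearly all cells.

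Among the other targets, *Slc16a3*, which encodes the lactate exporter MCT4, was measured at 80.5, 97.9, 118 and 134 CPM with DMSO and 187, 304, 317 and 364 CPM with SAG. Its levels did not overlap, with a change of 1.44 on the log2 scale (SE 0.24; edgeR, adjusted p = 0.0130). Among the regulators, *Cited2*, a HIF target whose product competes with HIF-1α for the coactivators p300 and CBP, was measured at 91.2, 94.0, 100.1 and 105 CPM with DMSO and 152, 210, 163 and 139 CPM with SAG, again without overlap. Its log2 fold change was 0.77 (SE 0.18; edgeR, adjusted p = 0.0438). The 7 genes that rose were also called by DESeq2 and by limma voom. In edgeR *Gapdh* and *Cited2* lost the call with DESeq2's size factors, with library size alone, without a filter and with the replicate block, *Slc2a3* with either scaling, and *Aldoa* with the block, while *Gpi1*, *Pfkfb4* and *Slc16a3* kept it in each of these fits. In the 8 fits that each left out 1 mouse, *Slc16a3* and *Gpi1* were called in 5, *Pfkfb4* in 3, *Slc2a3* and *Aldoa* in 2, and *Cited2* and *Gapdh* in 1. In edgeR none of the listed targets was called without DMSO replicate 2, without DMSO replicate 3 or without SAG replicate 4. The neutrophil markers given above were higher in the same 4 mice, and their part in these differences was not tested.

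Among the 35 other targets, 4 genes that did not pass the test in edgeR were singled out after their values had been seen, for their negative log2 fold changes. *Plod2*, a collagen lysyl hydroxylase, was measured at 1003, 1259, 998 and 597 CPM with DMSO and 464, 206, 455 and 513 CPM with SAG, a log2 fold change of −1.23 (edgeR, adjusted p = 0.0538). *Angptl4* and *Stc2*, which encode secreted proteins, had log2 fold changes of −1.52 (edgeR, adjusted p = 0.0859) and −1.60 (edgeR, adjusted p = 0.0805), and *Car12*, a carbonic anhydrase like *Car9*, had −1.66 (edgeR, adjusted p = 0.0874). For *Plod2*, *Angptl4* and *Stc2* the highest level with SAG was below the lowest level with DMSO, and for *Car12* the groups overlapped. Over all tested genes the groups did not overlap for 11.7%. In this list *Kdm4c*, *Mxi1*, *Flt1* and *Slc16a3* did not overlap in the other direction, with SAG higher. *Mxi1* of the same list went the other way, with a log2 fold change of 1.05 (edgeR, adjusted p = 0.0522) and no overlap. It was called higher by DESeq2, limma voom and edgeR without DMSO replicate 4, and *Ero1l* by limma voom and edgeR without that mouse. *Plod2*, *Stc2* and *Car12* were called lower in each of these fits, and *Angptl4* by DESeq2 and by edgeR without that mouse. *Bhlhe41* was called lower by DESeq2 and limma voom, and *Bhlhe40* and *Loxl2* by limma voom. In this list of 35, DESeq2 called 2 genes higher and 5 lower, limma voom called 3 higher and 6 lower, and edgeR without DMSO replicate 4 called 3 higher and 4 lower, whereas edgeR with all 8 mice called 1 higher and 0 lower. In the glycolytic list each of these alternatives called 6 genes higher and 0 lower. The same fits called more genes in general, with 6.6% of all genes higher and 3.35% lower by DESeq2, 6.45% and 2.58% by limma voom, and 6.44% and 2.17% by edgeR without DMSO replicate 4. The chondrocyte marker sums of all 4 SAG-treated mice lay below those of DMSO replicates 1 to 3, and their part in these values was not tested.

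Of the VEGF family and its receptors, 8 of 9 listed genes were in the table and 7 were tested, and 0 passed in either direction in edgeR, also at an unadjusted p under 0.05. The smallest p-values belonged to *Flt1* and *Vegfb*. *Flt1*, a VEGF receptor that is itself a HIF target and also stands in the list of 35, was measured at 2.03, 2.92, 0.423 and 2.35 CPM with DMSO and 5.58, 3.11, 5.38 and 5.61 CPM with SAG. Its levels did not overlap, but its log2 fold change of 1.35 had a standard error of 0.77 and an adjusted p of 0.449 from edgeR. *Vegfb* encodes a ligand of this receptor, and its log2 fold change was 0.79 (edgeR, adjusted p = 0.650).

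**Figure D4:**
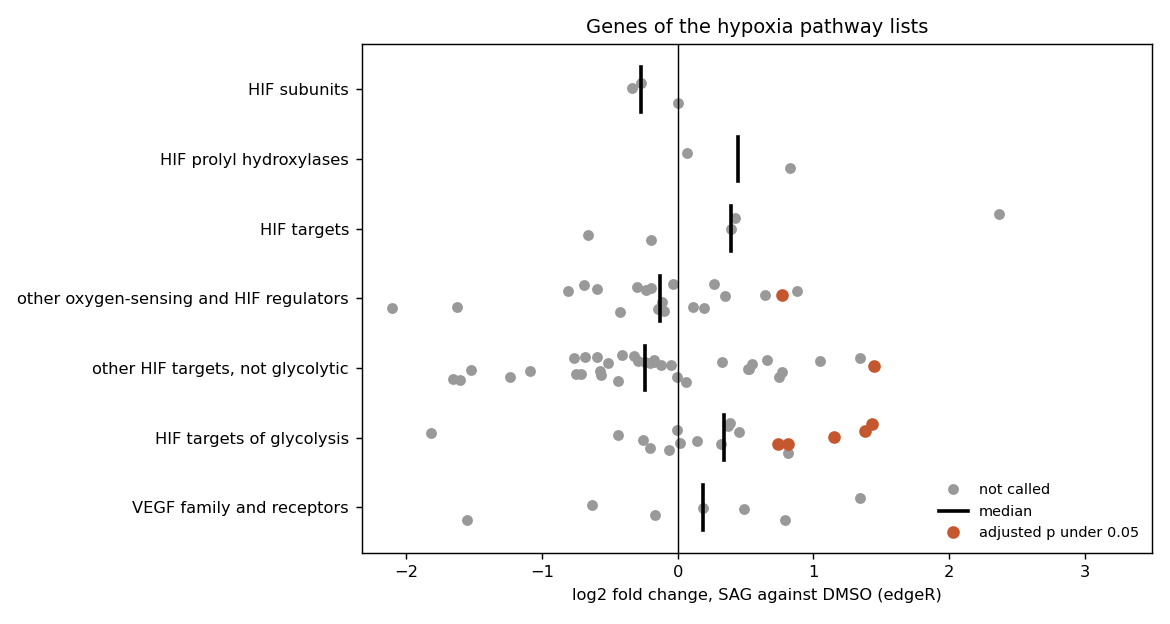
Log2 fold change (SAG against DMSO, edgeR) of each tested gene of the pathway lists, in orange where the adjusted p was under 0.05 and in grey otherwise, with a black bar at the median of each list. The orange points are 5 genes of glycolysis, 1 other target and 1 regulator, all above 0.

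For the 4 members with the smallest unadjusted p, the genes with the most similar profile were looked up among 9312 genes with a mean of at least 10 CPM, as Pearson's r of log2 CPM over the 8 libraries. The libraries share their treatment groups and their cell makeup, so these values are a description. *Hif1a* was most like *Sobp* (r = 0.993), *Tenm3* (r = 0.992) and *Luzp1* (r = 0.989). *Car9* was most like *Atxn7l3* (r = 0.989), *Naa35* (r = 0.973) and *Rps6kb2* (r = 0.969). *Bnip3* was most like *Sim2* (r = 0.948), *Nfib* (r = 0.939) and *Pfdn4* (r = 0.933), and *Ndrg1* was most like *Dtx3l* (r = 0.966), *Wac* (r = 0.960) and *Cept1* (r = 0.959). None of these 12 genes was another member of the hypoxia lists, and none passed the test between the groups.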

How the data were processed

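RNA of sorted cells from 8 mice was extracted and made into stranded total RNA libraries with a kit for very small inputs. The authors deposited raw counts of reads per gene as whole numbers, without normalization. The submitters' processing notes name kallisto, DESeq2 and GRCm38 without saying what each was used for. Libraries were assigned to groups by their labels, and 0 were left unmatched. All 16536 symbols were found in GENCODE M21, which gave coordinates and exon lengths. *Arnt* also overlaps a gene model on its own strand there. *Hif1a*, *Bnip3*, *Ndrg1* and *Car9* overlap models on the opposite strand, all absent from the count table.

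The test was that of edgeR 4.0.16 (R 4.3.3): filterByExpr, TMM scaling, robust quasi-likelihood test, Benjamini-Hochberg adjustment over 15421 genes, threshold 0.05. CPM used the TMM factors. A prior count of 2 was used for log2 CPM only and not in the test, and the common dispersion was 0.466. DESeq2 1.42.0, limma 3.58.1 (voom), other scalings and filters, a replicate block, library sizes without hemoglobin, ribosomal RNA and mitochondrial genes, and leaving out each mouse were alternatives. Scripts were tested on simulated data in which 200 of 15421 genes, drawn from those above a minimum mean count, were changed. At 2-fold, 4-fold and 8-fold changes edgeR recovered 0.5%, 46.5% and 64% of them, with 0, 6 and 9 false calls. DESeq2 recovered 17%, 64% and 82.5%, with 33, 58 and 70 false calls. Limma voom recovered 0.5%, 42.5% and 58%, with 0, 2 and 3 false calls. Most 2-fold changes were thus missed in the simulation, whose share of changed genes was set and need not match that of the data. In the data edgeR called some changes under 2-fold, such as *Gapdh* (0.74 on the log2 scale). A gene that was not called is not shown to be unchanged. Ratios were compared by exact permutation in scipy 1.17.1. The ratio of *Egln3* to *Egln1* was planned on a log2 scale, but 1 library had 0 *Egln3* counts, so a percentage was used. Replicate numbers belong to different mice, and the tests set the difference between groups against the spread between libraries, 1 per mouse.

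The 10 genes and all lists were chosen with earlier results of these data known. Named were the 10 genes, the called genes of each list (at most 6 in each direction) or otherwise the 2 with the smallest p, the genes most like 4 members, and the leading markers. *Pgk1*, *Plod2*, *Angptl4*, *Stc2*, *Car12*, *Mxi1*, *Ero1l*, *Bhlhe40*, *Bhlhe41*, *Loxl2* and *Kdm4c* were also named, outside this rule. Core sites were searched in RefSeq promoter windows.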

Additional observations from a re-analysis of the deposited data

Results flagged for a closer look

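The share of *Egln3* relative to *Egln1* counts was 3.11% in SAG replicate 4, while the nearest of the other SAG-treated mice was at 6.43%. The gap was 0.860 of the range of the group, above Dixon's critical value at the 95% level for 4 samples. Of 24 groups of 4 mice tested in this way, 1 exceeded it, and chance gives 1.2.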

How the results depend on the processing

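In all 16 alternative fits 0 of the 10 genes were called in either direction. Of 157 log2 fold changes of these genes under the alternatives, 145 kept their direction and 12 reversed, 0 of them with an adjusted p under 0.05. The reversals were those of *Arnt*, with −0.026 by DESeq2, −0.017 by limma voom, −0.025 with DESeq2's size factors, −0.049 with library size alone, −0.016 without a filter, −0.0040 with the replicate block and −0.10 to 0.056 with each mouse left out, and of *Egln1*, with −0.0091 to 0.19 with each mouse left out. The log2 difference in the ratio of *Hif1a* to *Epas1* was between −0.31 and 0.27 with each mouse left out. Over all genes 445 were called, 1225 by DESeq2, 1393 by limma voom and 86 to 1360 with each mouse left out. Of the other HIF targets (lists of 18 and 35) 6 were called, 13 by DESeq2, 15 by limma voom and 0 to 13 with each mouse left out. It was 0 without DMSO replicate 2, DMSO replicate 3 or SAG replicate 4, and 13 without DMSO replicate 4. The cause was not tested. With the replicate block 352 genes and 0 members were called, and deviations of mice with the same number correlated at 0.010 to 0.12. A minimum of 10 counts in every library left out *Egln3*, *Ankrd37* and *Car9*, the members with the lowest counts.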
